A study of Mus musculus with 21 samples.

Results

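Clusters of crosslink positions that were listed for SRSF7 in chromatin, nucleoplasm and cytoplasm, while at least 1 of the SRSF3 fractions lacked them, are described here. Listed positions of all 6 groups were joined into clusters where neighbours on the same strand lay up to 30 nt apart. A cluster was kept when all 3 SRSF7 lists held a position in it and at least 1 SRSF3 list held none, and the mitochondrial genome was left out. These clusters are called SRSF7-only here, although SRSF3 may be listed in up to 2 of its 3 fractions. The rule gave 1808 clusters of 211479 in all, or of 211409 off the mitochondrial genome. The choice rests on presence and absence in the lists, so these are descriptions of the chosen clusters and the difference between SRSF7 and SRSF3 presence is not a result.

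The data come from fractionation iCLIP in the P19 line of mouse embryonal carcinoma cells. Cells carried a fusion of SRSF7 or of SRSF3 with GFP and were crosslinked with ultraviolet light of 254 nm at 100 mJ/cm2, then separated into chromatin, nucleoplasm and cytoplasm. SRSF7 had 3 replicates per fraction and SRSF3 had 4, 21 samples in all, and each group's replicates were pooled by the authors into 1 list. The lists held 248498 cDNAs for SRSF7 chromatin, 275018 for SRSF7 nucleoplasm and 367298 for SRSF7 cytoplasm, against 1768665, 315510 and 257089 for the same fractions of SRSF3. All groups share the cell line, and the labels do not say how many copies of a tagged gene a line carries, how much flanking DNA came with it, or whether a line is 1 clone. No sample without a tagged protein was analysed here.

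SRSF7 belongs to the SR proteins, which bind RNA through a recognition motif and contact other proteins through a domain rich in serine and arginine. SRSF7 also carries a zinc knuckle that takes part in RNA recognition, which SRSF3, its close relative, lacks. Both proteins shuttle between nucleus and cytoplasm, and both are known for roles in splicing, in the choice of polyadenylation site and in the export of mRNA. In iCLIP, reverse transcription stops at the crosslinked nucleotide, so each listed position marks where cDNAs ended. Its count is the number of cDNAs found there.

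SRSF3 had no listed position at all in 523 of the 1808 clusters (28.9%). It was listed in 1 fraction in 674 clusters (37.3%) and in 2 fractions in 611 (33.8%). Chromatin was the fraction in which SRSF3 most often shared a cluster: 550 clusters were listed for SRSF3 in chromatin alone, 430 in chromatin and nucleoplasm, and 110 in chromatin and cytoplasm. SRSF3 was listed in cytoplasm alone in 76 clusters, in nucleoplasm and cytoplasm in 71 and in nucleoplasm alone in 48. The clusters were thus missing from SRSF3 cytoplasm in 1551 cases (85.8%), from SRSF3 nucleoplasm in 1259 (69.6%) and from SRSF3 chromatin in 718 (39.7%). This order follows the number of positions listed, which was 870234 in SRSF3 chromatin, 109400 in SRSF3 nucleoplasm and 58686 in SRSF3 cytoplasm, and the part of list length in it was not tested.

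The counts that an equal share would have given differed between the SRSF3 lists. If SRSF3 had held the same share of its list as SRSF7 in the same fraction, 675 of the 718 clusters missing from SRSF3 chromatin would have held at least 10 SRSF3 cDNAs. The number was 479 of 1259 in nucleoplasm and 263 of 1551 in cytoplasm. This difference depends on list size and is no result about binding. The chromatin list held 1768665 cDNAs for SRSF3 against 248498 for SRSF7, so very few SRSF7 cDNAs were enough there. The median SRSF7 count of the missing clusters was 4 in chromatin, 6 in nucleoplasm and 6 in cytoplasm. These counts describe clusters chosen for their absence from SRSF3 lists, and such cDNAs spread over a cluster need not have passed the peak threshold. Absence from a list does not show absence of binding. Whether peaks were called in the same way for both proteins is also not known, as the track names differ between them.

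The clusters held a modest part of SRSF7 binding. They took 10.1% of the SRSF7 chromatin list (95% interval 9.99 to 10.2), 10.7% of the nucleoplasm list (10.6 to 10.8) and 6.79% of the cytoplasm list (6.71 to 6.87). Intervals on shares are exact Clopper-Pearson intervals and those on ratios are conditional exact binomial intervals. Both cover counting error only. Each group is 1 pooled list, so there was no replicate spread to test against and p-values are not given. For SRSF3 the same clusters took 4.68% of the chromatin list, 2.65% of the nucleoplasm list and 1.45% of the cytoplasm list. By comparison, the 1294 clusters listed in all 6 groups took 61.0% of the SRSF7 chromatin list, 45.3% of the nucleoplasm list and 46.7% of the cytoplasm list.

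Most of the clusters were weak, and a few were strong. The median cluster held 5 SRSF7 chromatin cDNAs, 7 in nucleoplasm and 6 in cytoplasm, against 11, 19 and 18 in clusters listed in all 6 groups. The mean count per listed SRSF7 position was 2.18 in chromatin, 1.72 in nucleoplasm and 1.76 in cytoplasm, against 7.09, 4.79 and 6.73 in the clusters shared by all groups. Presence in all lists favours strong clusters by construction, so this gap was partly set by how the 2 sets were chosen. The 10 clusters with the highest mean share over the 3 SRSF7 fractions held 20.1% of the summed mean share, and the top 100 held 43.2%. Of the 1808 clusters, 1013 (56.0%) held at least 20 SRSF7 cDNAs over the 3 fractions together, and the median total was 22.

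At the edge of the rule, 207 clusters (11.4%) rested on 1 cDNA in their weakest SRSF7 fraction, with a median total of 13 SRSF7 cDNAs. Just outside lay 7689 clusters that were listed in 2 of the 3 SRSF7 fractions and missing from at least 1 SRSF3 fraction, with a median total of 9. On the SRSF3 side, the 611 clusters missing from exactly 1 SRSF3 fraction had a median of 26 SRSF7 and 39 SRSF3 cDNAs. The 40 clusters kept out by a single SRSF3 cDNA in the weakest fraction had medians of 59.5 and 72. With a gap of 29 nt in place of 30 the rule found 1813 clusters, and with 31 nt it found 1817.

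The median width was 60.5 nt, with quartiles at 30 and 113 nt and a range of 1 to 1490 nt. Clusters listed in all 6 groups had nearly the same median, 61 nt. The 2122 clusters with the mirrored pattern, listed in all 3 SRSF3 fractions and missing from at least 1 SRSF7 fraction, had a median of 44 nt. Clusters of up to 5 nt made up 133 of the 1808 (7.36%), against 63 of 1294 (4.87%) among those shared by all groups. The strands were evenly used, with 883 clusters on the plus strand.

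The highest mean share belonged to a 192-nt cluster on the plus strand of chromosome 17, chr17:39982197-39982388 of build mm9. SRSF7 had 2927 cDNAs there in chromatin, 4 in nucleoplasm and 429 in cytoplasm, against 19091, 580 and 0 for SRSF3. As a share of the list, the cluster held 1.18% of SRSF7 chromatin and 1.08% of SRSF3 chromatin. The cluster met the rule through its absence from the SRSF3 cytoplasm list alone. Its SRSF7 chromatin share was 9.66 log2 units above the nucleoplasm share (8.30 to 11.54) and 3.33 above the cytoplasm share (3.19 to 3.48). A second cluster 32 nt wide lay just upstream, at 39982100 to 39982131. That one had 947, 150 and 349 SRSF7 cDNAs in chromatin, nucleoplasm and cytoplasm, against 1274, 0 and 270 for SRSF3. Both lay inside a locus at 39979938 to 39985047 that also held 8 clusters listed in all 6 groups, so their listing differed from that of their surroundings in 1 fraction of SRSF3. The whole locus was heavily listed for both proteins. It held 19.7% of SRSF7 chromatin cDNAs, 6.11% of nucleoplasm and 17.3% of cytoplasm, against 9.38%, 16.7% and 21.9% for SRSF3.

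**Figure D1:**
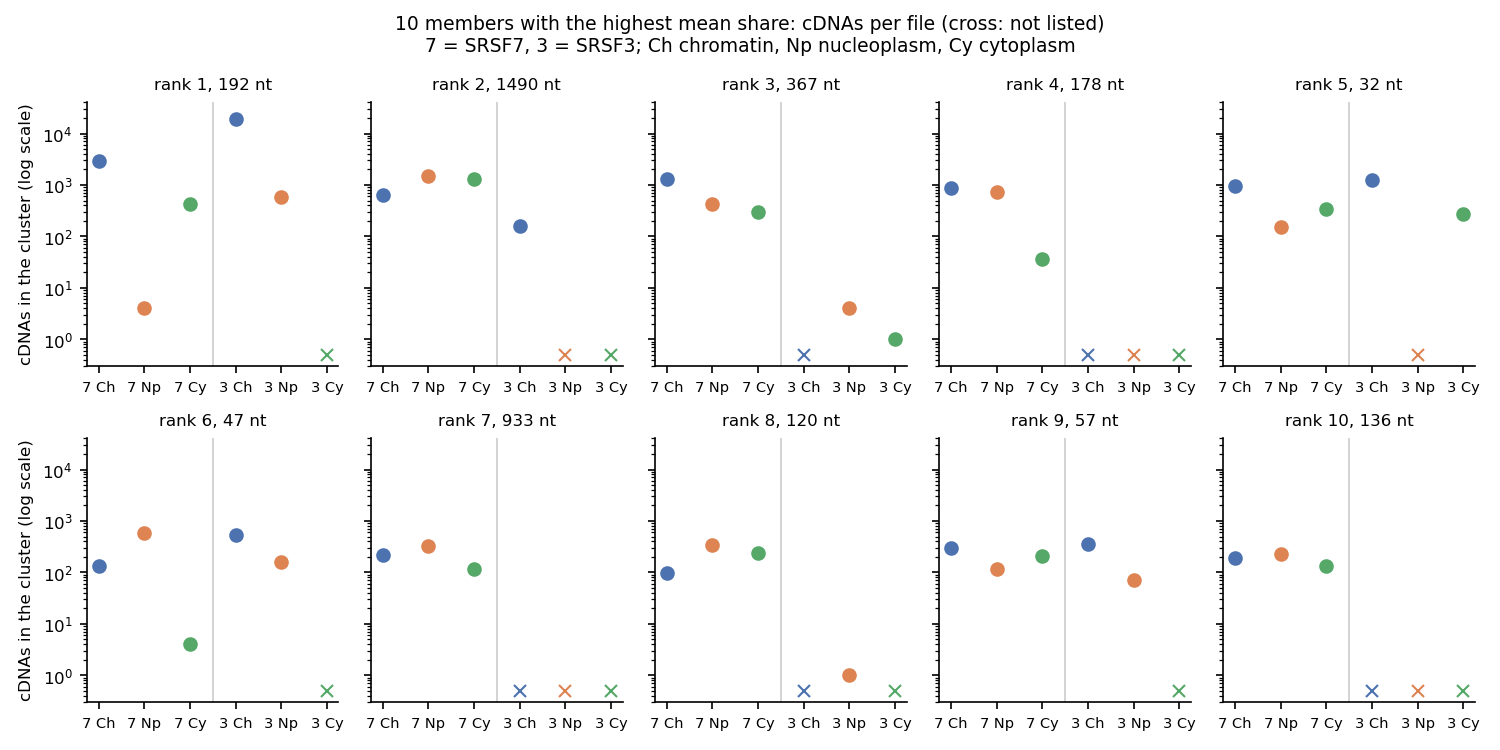
cDNA counts (log axis) of the 10 clusters with the highest mean SRSF7 share, in order of rank, for SRSF7 (7) left of the grey line and SRSF3 (3) right of it, in chromatin (Ch), nucleoplasm (Np) and cytoplasm (Cy). A cross marks a list without the cluster: ranks 4, 7 and 10 had no SRSF3 position, while rank 1 had 19091 SRSF3 cDNAs in chromatin and none listed in cytoplasm.

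On chromosome 19, a minus-strand locus at 5794731 to 5803434 held 17 clusters listed in all 6 groups and 4 of the SRSF7-only clusters. The cluster at chr19:5801604-5801970 had 1337 SRSF7 chromatin cDNAs, 435 in nucleoplasm and 297 in cytoplasm, against 0, 4 and 1 for SRSF3. The cluster next to it, chr19:5801275-5801452, had 891, 725 and 36 SRSF7 cDNAs and no SRSF3 position. These were ranks 3 and 4 by mean share, and both held their highest share in chromatin. The chromatin share of the second was 5.19 log2 units above its cytoplasm share (4.71 to 5.72), and its nucleoplasm share was 4.75 above (4.27 to 5.27). The first was 2.73 above in chromatin (2.55 to 2.92) and 0.97 above in nucleoplasm (0.75 to 1.19).

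Around this pair lay a gap in the SRSF3 chromatin list. Between the neighbouring listed SRSF3 chromatin positions, from 5800986 to 5802342, a run of 1357 nt held 5 SRSF3 cDNAs in nucleoplasm and 1 in cytoplasm, and none in chromatin by its own definition. SRSF7 had 2602, 1309 and 571 cDNAs in that run, at 427, 198 and 150 positions. SRSF3 was well covered elsewhere in the same locus, with 34390 chromatin cDNAs, 3224 in nucleoplasm and 1794 in cytoplasm, against 10067, 10494 and 6148 for SRSF7. The third cluster of the locus, chr19:5802320-5802376, met the rule only through SRSF3 cytoplasm: SRSF7 had 302, 119 and 210 cDNAs there and SRSF3 had 361, 70 and 0. The fourth, at 5802652 to 5802675, was weak, with 7, 10 and 5 SRSF7 cDNAs against 41, 35 and 0 for SRSF3.

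**Figure D2:**
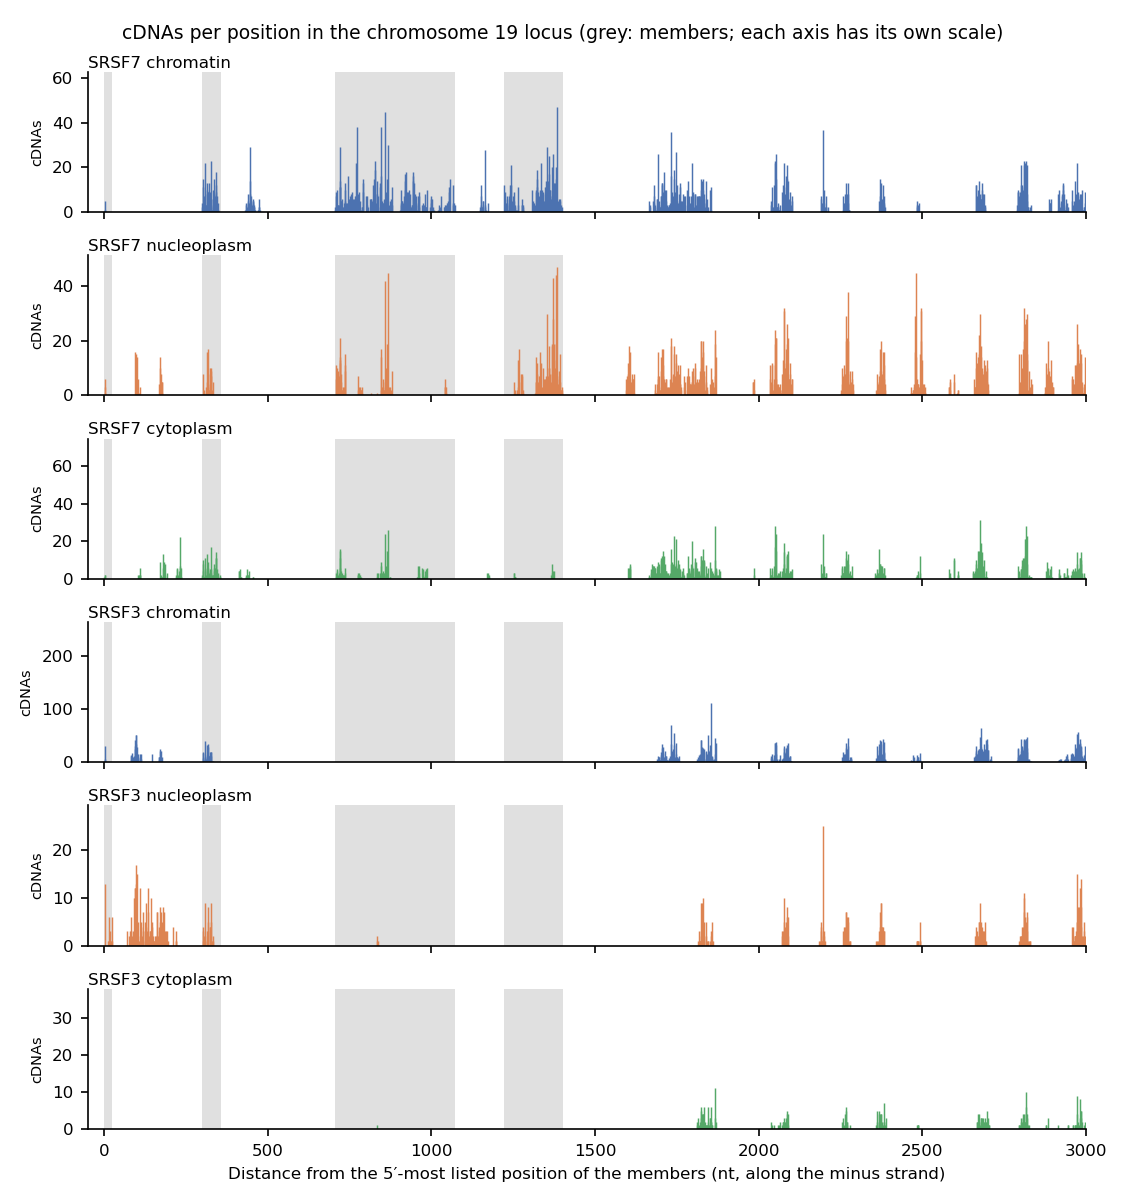
cDNAs per position over the first part of the chromosome 19 locus, counted along the minus strand from the outermost position of its SRSF7-only clusters (grey), with 1 panel per list and each panel on its own linear scale. Both wide grey clusters are filled in the 3 SRSF7 panels and nearly empty in the SRSF3 panels, while the clusters to their right are filled in all 6.

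A stretch of chromosome 17 held 46 of the clusters, 33 of them without any SRSF3 position. The stretch ran from 80586414 to 80694924, or 108511 nt, and was made of neighbouring loci on both strands. SRSF7 had 8788 cDNAs in it in chromatin (3.54% of the list), 17281 in nucleoplasm (6.28%) and 9052 in cytoplasm (2.46%). SRSF3 had 1595 (0.0902%), 176 (0.0558%) and 15 (0.00583%). The plus strand, which held few cDNAs, showed the same contrast, with 159, 293 and 191 SRSF7 cDNAs against 0, 0 and 2 for SRSF3.

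Outside the stretch cDNAs were few for both proteins. In the 200 kb below it, SRSF7 had 10, 39 and 19 cDNAs in chromatin, nucleoplasm and cytoplasm, against 224, 3 and 0 for SRSF3. In the 200 kb above it, SRSF7 had 0, 7 and 2 cDNAs, against 4, 2 and 8 for SRSF3. SRSF7 counts in the stretch exceeded those of SRSF3 in every fraction and on both strands, and a difference between the 2 cell lines in the RNA made from it cannot be told apart from a difference in binding.

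**Figure D3:**
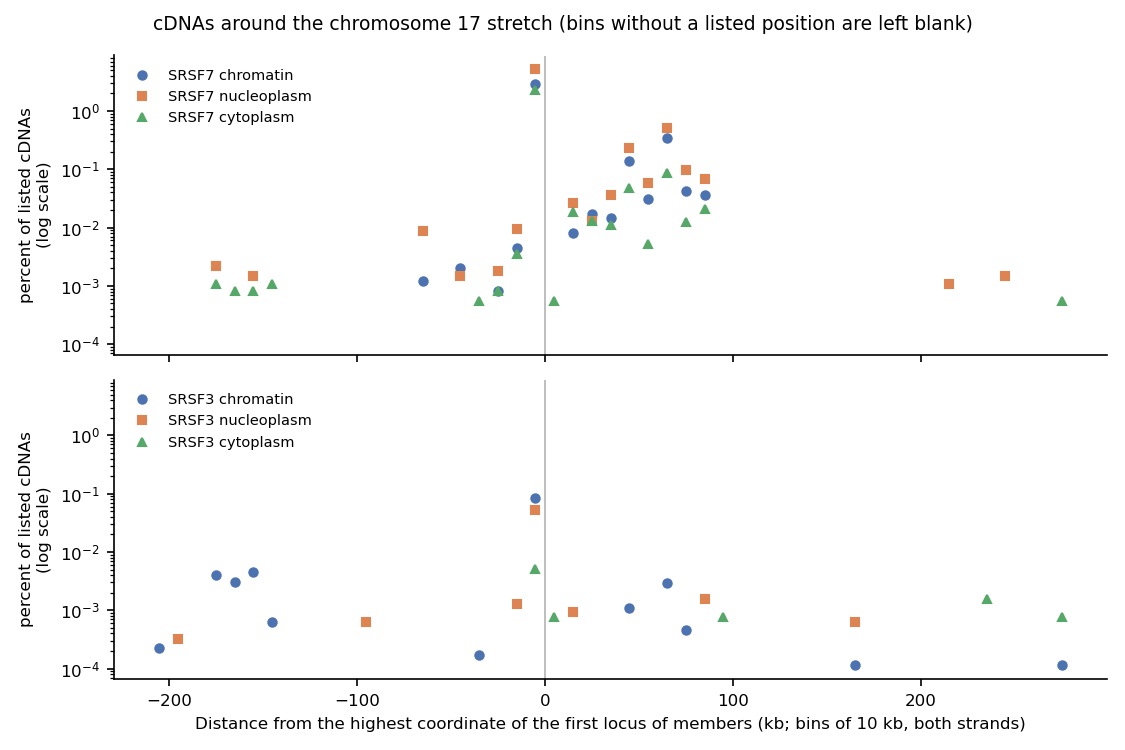
Percent of each list's cDNAs (log axis) in bins of 10 kb around the chromosome 17 stretch, both strands together, SRSF7 above and SRSF3 below; 0 is the upper end of the first locus of clusters. SRSF7 bins stand high from just below 0 to about 90 kb above it and are sparse outside, while SRSF3 is highest in the single bin just below 0.

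Within the stretch, the locus on the minus strand at 80586414 to 80606648 held 8 SRSF7-only clusters and 2 clusters listed in all 6 groups. The widest of the 1808 clusters lay there: chr17:80599453-80600942, 1490 nt, had 646 SRSF7 chromatin cDNAs, 1479 in nucleoplasm and 1307 in cytoplasm, against 161, 0 and 0 for SRSF3. It ranked 2nd by mean share, and none of its SRSF7 ratios between fractions was called beyond 2-fold. The cluster at 80606529 to 80606648 had 96, 338 and 238 SRSF7 cDNAs and a single SRSF3 cDNA, in nucleoplasm. The cluster at 80605224 to 80605359 had 194, 231 and 133, and the one at 80602035 to 80602166 had 120, 329 and 38, both without an SRSF3 position. All 8 held their highest SRSF7 share in nucleoplasm, and so did the locus as a whole. With at least 20 SRSF7 cDNAs, nucleoplasm led in 54.3% of the SRSF7-only clusters and in 41.2% of all clusters. The cluster of the locus with the most cDNAs was listed in all 6 groups: the one at 80603663 to 80604778 had 4854, 9403 and 5817 SRSF7 cDNAs against 1106, 134 and 9 for SRSF3.

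The next locus on that strand, 80637679 to 80689490, held 33 SRSF7-only clusters, the most of any locus, and no cluster listed in all 6 groups. SRSF3 had no position in 25 of them and was listed in chromatin in the other 8. The largest, chr17:80674002-80674934, had 223 SRSF7 cDNAs in chromatin, 325 in nucleoplasm, 117 in cytoplasm and none of SRSF3. The nucleoplasm held the highest SRSF7 share in 28 of the 33, counted without a minimum of cDNAs. It also did so in the locus as a whole, with 0.945% of its list against 0.566% in chromatin and 0.163% in cytoplasm. Clusters of 1 locus are not separate instances. Over all clusters with at least 20 SRSF7 cDNAs, nucleoplasm led in 41.2%. On the opposite strand, a cluster at 80690785 to 80690954 had 48, 90 and 63 SRSF7 cDNAs and no SRSF3 cDNA. Of the 6 highest clusters without SRSF3, all but the one on chromosome 19 and chr7:67364395-67364754, with 30, 82 and 13 SRSF7 cDNAs, lay in this stretch. The 1762 SRSF7-only clusters outside the stretch held 9.06% of the full SRSF7 chromatin list, 8.81% in nucleoplasm and 6.09% in cytoplasm. The stretch thus accounts for a part of the total and not for most of it.

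The 1808 clusters were spread over 921 loci, where a locus joins listed positions up to 10000 nt apart on 1 strand and may merge neighbouring genes. A single cluster was found in 663 loci, and the other 258 held 1145 clusters (63.3%). Of the 921, 184 also held a cluster listed in all 6 groups. Those loci held 664 of the clusters (36.7%), at a median distance of 2058.5 nt from the nearest shared cluster, with 55 within 100 nt. The larger part of the SRSF7-only clusters therefore lay in loci without a cluster shared by every list.

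The loci with the most clusters differed in how SRSF3 appeared in them. After the chromosome 17 locus with 33, the plus-strand locus of chromosome 1 at 11056686 to 11244752 had 28, of which 4 lacked SRSF3 altogether and 24 were listed for SRSF3 in chromatin. On chromosome X, the plus-strand locus 148237819 to 148369898 had 27, with 3 lacking SRSF3. On chromosome 4, the plus-strand locus 126698562 to 126716356 had 19, also with 3 lacking SRSF3. Both remaining loci of this group had 17 clusters: the minus-strand locus of chromosome 17 at 84602301 to 84846192 had none that lacked SRSF3, and the plus-strand locus of chromosome 12 at 110781914 to 110809746 had 11.

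The fraction that led also differed between these loci. In the chromosome 12 locus, 16 of 17 clusters held their highest SRSF7 share in nucleoplasm, and the whole locus had 237, 765 and 275 SRSF7 cDNAs in chromatin, nucleoplasm and cytoplasm against 43, 21 and 33 for SRSF3. In the chromosome 1 locus, 20 of 28 led in chromatin. The chromosome X locus was split: chromatin led in 12 clusters, nucleoplasm in 11 and cytoplasm in 4. In the chromosome 4 locus 11 led in nucleoplasm, 6 in cytoplasm and 2 in chromatin. These are counts over weak clusters, and many of them rest on few cDNAs. With at least 20 SRSF7 cDNAs, nucleoplasm led in 54.3% of the SRSF7-only clusters and in 41.2% of all clusters. Chromatin led in 20.5% and 22.3%, and cytoplasm in 25.2% and 36.5%.

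SRSF7 fractions were compared cluster by cluster as the log2 ratio of the cluster's share of each list, for clusters with at least 20 cDNAs in the pair together. Calls of higher or lower needed the whole 95% interval beyond 2-fold. In chromatin over cytoplasm, 112 of 550 SRSF7-only clusters were higher (20.4%) and 71 were lower (12.9%). Among all 2368 clusters compared, 22.6% were higher and 33.7% were lower. The median log2 ratio was 0.06 for the SRSF7-only clusters and -0.59 over all clusters, so a smaller share of the SRSF7-only set leaned to cytoplasm. Presence in every SRSF7 fraction narrows these ratios by construction, and clusters listed in all 6 groups, which meet the same demand, gave 22.8% higher, 15.2% lower and a median of 0.02.

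In nucleoplasm over cytoplasm, 146 of 712 were higher (20.5%) and 55 were lower (7.72%), with a median log2 ratio of 0.79. All 2879 clusters compared gave 19.2% higher, 18.7% lower and a median of 0.13, and the clusters of all 6 groups gave 20.8%, 14.7% and 0.58. In chromatin over nucleoplasm, 54 of 584 were higher (9.25%) and 73 lower (12.5%), with a median of -0.75. Of all 2063 clusters compared, 18.8% were higher and 19.3% lower, with a median of -0.55, and the clusters of all 6 groups gave 18.3%, 15.9% and -0.48. By their medians all 3 sets stood highest in nucleoplasm. By calls, the excess of lower over higher SRSF7-only clusters in chromatin over nucleoplasm was not kept under every setting: there were 31 of each with at least 50 cDNAs, and 18 higher and 8 lower when positions were counted. Without the 10 highest loci and mitochondrial RNA, 56 were higher and 42 lower. The same setting brought nucleoplasm over cytoplasm closer to balance, with 94 higher and 71 lower in place of 146 and 55.

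Nucleoplasm held the highest SRSF7 share in 550 of the 1013 SRSF7-only clusters with at least 20 SRSF7 cDNAs (54.3%), cytoplasm in 255 (25.2%) and chromatin in 208 (20.5%). In the clusters of all 6 groups it led in 505 of 1086 (46.5%), and over all clusters with as many cDNAs in 1511 of 3669 (41.2%). Cytoplasm led in 27.3% of the shared clusters and in 36.5% of all.

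**Figure D4:**
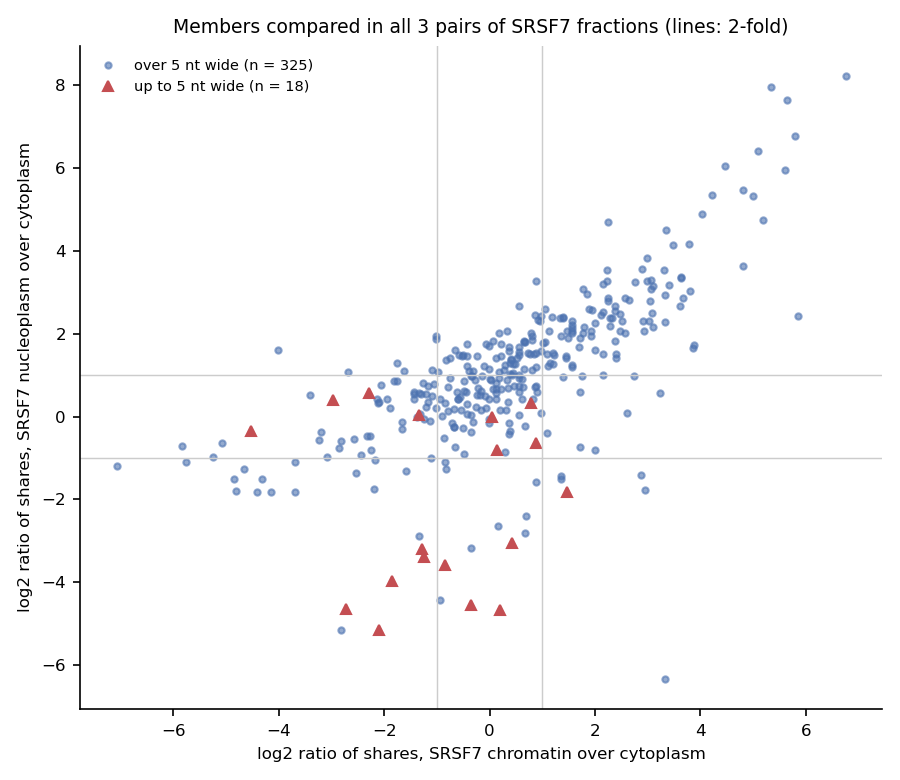
log2 ratios of SRSF7 shares for the SRSF7-only clusters compared in all 3 pairs of fractions, chromatin over cytoplasm against nucleoplasm over cytoplasm, with lines at 2-fold; circles are clusters over 5 nt wide (n = 325) and triangles those of up to 5 nt (n = 18). Wide clusters run along the diagonal into the upper right, and the triangles reach far below the lower line, where circles are few.

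The clusters with the highest nucleoplasm over cytoplasm ratios had few cDNAs in the SRSF7 cytoplasm list. They were named for this ratio, so their low listing in cytoplasm followed in part from the choice. The 57-nt cluster chr4:116827149-116827205 had 73 SRSF7 chromatin cDNAs, 223 in nucleoplasm and 1 in cytoplasm, and its share in nucleoplasm was 8.22 log2 units above that in cytoplasm (5.73 to 13.53). SRSF3 had 286, 70 and 0 there. The cluster chr17:35088986-35089037 had 55, 368 and 2 SRSF7 cDNAs and differed by 7.94 log2 units (6.08 to 10.99), against 252, 116 and 0 cDNAs for SRSF3. The cluster chr2:130101230-130101276 followed with 135, 590 and 4 and a difference of 7.62 (6.26 to 9.50), against 526, 163 and 0, and ranked 6th by mean share. The last of the 4, chr11:48615424-48615575, had 150, 327 and 4 SRSF7 cDNAs and a difference of 6.77 (5.40 to 8.66), against 749, 75 and 0. All 4 had SRSF3 in chromatin and nucleoplasm and lacked it in cytoplasm, the fraction in which SRSF7 also had 4 cDNAs or fewer.

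The highest chromatin over cytoplasm ratio belonged to chr2:158182182-158182240, with 107 SRSF7 chromatin cDNAs, 2 in nucleoplasm and 1 in cytoplasm, or 7.31 log2 units (4.80 to 12.62). SRSF3 was listed there in chromatin alone, with 555 cDNAs. The cluster chr9:15118294-15118342 had 234, 24 and 6 SRSF7 cDNAs, or 5.85 log2 units (4.71 to 7.31), and 523 SRSF3 cDNAs in chromatin alone. Both were named for a high SRSF7 chromatin ratio, so their lean to chromatin followed from the choice. The others of the 4 highest were also listed for SRSF3 in nucleoplasm. They were chr4:116827149-116827205 (6.75 log2 units), with more SRSF7 cDNAs in nucleoplasm than in chromatin, and chr2:37255607-37255657 (5.92 log2 units). A 14-nt cluster, chr10:40271052-40271065, stood among the highest in chromatin over nucleoplasm, with 170, 3 and 5 SRSF7 cDNAs and a chromatin share 5.97 log2 units above that in nucleoplasm (4.40 to 8.26).

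At the other end, chr3:127248178-127248206 had 1 SRSF7 cDNA in chromatin, 65 in nucleoplasm and 199 in cytoplasm, which gave -7.07 in chromatin over cytoplasm (-12.38 to -4.58). SRSF3 had 7, 0 and 19 there. The cluster chr10:79174369-79174670, 302 nt wide, had 1, 17 and 111 SRSF7 cDNAs, which gave -6.23 (-11.55 to -3.72), against 0, 17 and 16 for SRSF3. The cluster chr9:72595384-72595751 had 1, 39 and 85, which gave -5.85 (-11.17 to -3.33), and SRSF3 was listed in cytoplasm alone, with 40 cDNAs. Where such a ratio rests on 1 cDNA, its interval is wide and its size is poorly known. On the plus strand of chromosome 12, chr12:110786711-110786852 had 1, 49 and 1 SRSF7 cDNAs and was low in chromatin over nucleoplasm at -5.47 (-10.80 to -2.92).

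Cluster width differed with the direction of the call. In nucleoplasm over cytoplasm, the higher clusters had a median width of 138 nt, the lower ones 7 nt and those within 2-fold 103 nt. Of the 55 lower clusters, 24 were up to 5 nt wide, and 47 such narrow clusters were compared. Over all clusters, 100 of the 162 narrow ones compared were lower, so this lean was not particular to the SRSF7-only set. In chromatin over nucleoplasm the higher SRSF7-only clusters had a median of 18 nt and the lower ones 141 nt. The order was the same over all clusters (41 and 99 nt) and in those of all 6 groups (60 and 84.5 nt). In chromatin over cytoplasm, the medians of the SRSF7-only clusters were 90 nt for higher and 134 nt for lower ones. Examples of narrow clusters were chr17:66468409-66468412 with 45 SRSF7 chromatin cDNAs, 6 in nucleoplasm and 286 in cytoplasm, and chr9:58500678-58500680 with 3, 2 and 117. SRSF3 had 7, 0 and 33 cDNAs in the first of these and 0, 0 and 36 in the second.

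Together the 133 narrow clusters held 1624 SRSF7 chromatin cDNAs (0.654% of the list), 783 in nucleoplasm (0.285%) and 3063 in cytoplasm (0.834%). SRSF3 was listed in cytoplasm in 60 of the 133, against 197 of the 1675 wider clusters, and in chromatin in 47, against 1043. No narrow cluster had SRSF3 in all fractions, by the rule, and 43 of the 133 had no SRSF3 position at all, against 480 of the wider ones.

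The SRSF7 ratios differed with the SRSF3 lists that held a cluster. Among clusters listed for SRSF3 in chromatin and nucleoplasm, the median SRSF7 log2 ratio was 0.79 in chromatin over cytoplasm (141 clusters) and 1.44 in nucleoplasm over cytoplasm (212 clusters). Those listed for SRSF3 in chromatin alone had medians of 0.33 (156) and 0.97 (217). Clusters listed for SRSF3 in cytoplasm alone had medians of -1.38 (49) and -1.87 (43). Those listed in nucleoplasm and cytoplasm had -1.37 (39) and -0.30 (44). Clusters listed for SRSF3 in chromatin and cytoplasm had medians of 0.09 (61) and -0.80 (57), and those in nucleoplasm alone had -1.18 (12) and 0.55 (17).

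Clusters without any SRSF3 position had medians of 0.14 (92) and 0.94 (122). By count in nucleoplasm over cytoplasm, 59 of 212 clusters were higher and 4 lower where SRSF3 was listed in chromatin and nucleoplasm. Where it was listed in cytoplasm alone, 2 of 43 were higher and 21 lower. Over all 2879 clusters compared, 19.2% were higher and 18.7% lower. The median widths of these groups of SRSF7-only clusters were 73 and 24 nt. Narrow clusters leaned to cytoplasm over all clusters too, and the part of width in this contrast was not tested. In chromatin over nucleoplasm, clusters listed for SRSF3 in chromatin alone had a median of -0.75 (188 clusters, 11 higher and 21 lower). All 584 SRSF7-only clusters compared had the same median, with 9.25% higher and 12.5% lower. Over all 2063 clusters compared the median was -0.55, with 18.8% higher and 19.3% lower. The lean to nucleoplasm was thus not particular to clusters listed for SRSF3 in chromatin alone. The medians of chromatin over nucleoplasm were -0.93 for SRSF3 in chromatin and nucleoplasm (185), -0.60 without SRSF3 (103), -1.57 for nucleoplasm and cytoplasm (26) and -1.66 for nucleoplasm alone (13). They were above 0 for chromatin and cytoplasm, at 0.61 (48), and for cytoplasm alone, at 1.55 (21). The choice of clusters demanded presence in every SRSF7 fraction, which narrows the SRSF7 ratios by construction, so they are not independent of the choice. The RNA content of the fractions was not measured here for either protein, and its part in this pattern was not tested.

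**Figure D5:**
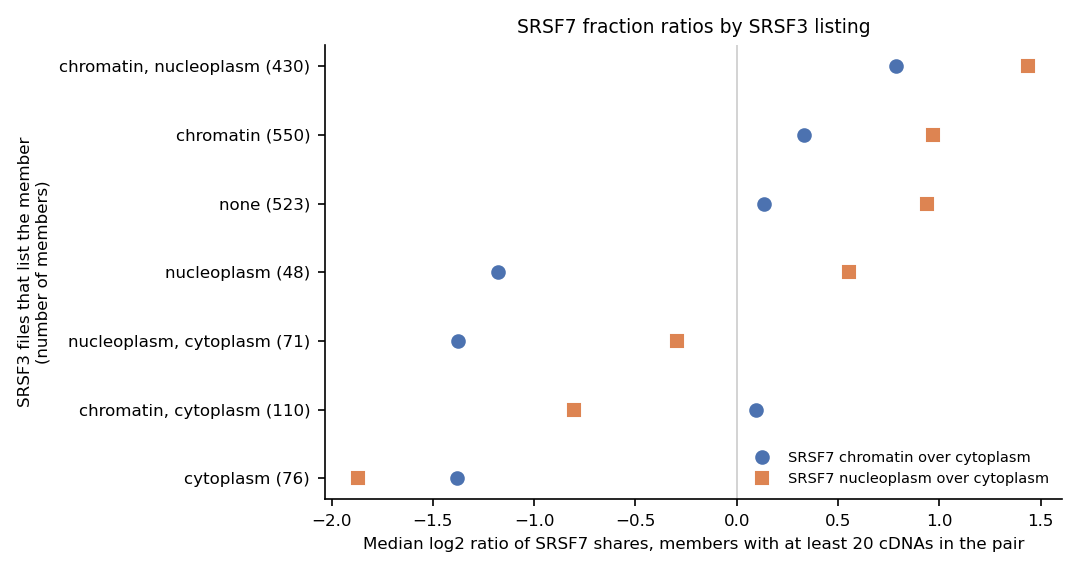
Median log2 ratio of SRSF7 shares, chromatin over cytoplasm (circles) and nucleoplasm over cytoplasm (squares), for SRSF7-only clusters grouped by the SRSF3 lists that hold them, with the number of clusters in brackets. Both medians were highest for clusters listed in SRSF3 chromatin and nucleoplasm (0.79 and 1.44) and both were below -1 for those listed in SRSF3 cytoplasm alone (-1.38 and -1.87).

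The position of the tallest crosslink within a cluster was often kept between SRSF7 fractions. Clusters were compared where the tallest position had at least 3 cDNAs in both lists. It lay within 5 nt in 189 of 253 clusters between chromatin and cytoplasm (74.7%, 68.9 to 79.9), in 197 of 293 between chromatin and nucleoplasm (67.2%, 61.5 to 72.6) and in 201 of 322 between nucleoplasm and cytoplasm (62.4%, 56.9 to 67.7). In 98 of the 193 clusters that could be compared in all 3 lists, it was the same nucleotide throughout (50.8%). Clusters listed in all 6 groups gave 66.8%, 66.0% and 68.5% for the same pairs, so the SRSF7-only clusters lay on both sides of them. The SRSF7-only clusters compared had median widths of 18, 43 and 45 nt in these pairs, against 59, 57 and 63 nt for the shared ones, and a narrow cluster limits how far apart its tallest positions can lie.

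The tallest position was also compared between the proteins. SRSF7 chromatin and SRSF3 chromatin had it within 5 nt in 135 of 246 clusters (54.9%, 48.4 to 61.2), against 495 of 719 clusters listed in all 6 groups (68.8%, 65.3 to 72.2) and 120 of 137 clusters with the mirrored pattern (87.6%, 80.9 to 92.6). The mirrored clusters compared were narrow, with a median of 26 nt, and these sets were chosen on their listing, so the difference between them was not tested. The median distance between both tallest positions was 3 nt in the SRSF7-only clusters, which had a median width of 61 nt.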

How the data were processed

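Fractionation iCLIP was carried out in 21 samples of 6 groups. The authors pooled the replicates and deposited 1 list per group, per the labels. Each entry is 1 nucleotide with a signed whole number, read here as the cDNA count deposited by the authors, with the sign as strand (an inference from the values, unit "other"). The threshold was a false discovery rate under 0.05 from 100 permutations within 15 nt, with Ensembl 59, per the file headers. In the 3 SRSF7 files the track names say that regions were taken as one, whereas every description says separately. Build mm9 is per the file headers and the submitters' processing notes; the sources used here name no aligner, duplicate removal or peak caller. No annotation of mm9 was used here, so clusters carry no gene names and no sequences, and the planned gene lists were not counted.

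Positions were joined at 30 nt into clusters and at 10000 nt into loci, with pandas 2.3.3, numpy 2.4.6 and scipy 1.17.1 in Python 3.11.15, and plotted with matplotlib 3.10.9. Ratios of shares needed 20 cDNAs in a pair, and calls needed the 95% interval beyond 2-fold. The text names the 10 clusters with the highest mean share, the 6 highest without SRSF3, examples of the 4 highest and 4 lowest ratios per contrast, and the 5 loci with most clusters (6 with a tie). Clusters named beside these were chosen after their values were seen. The comparison was tested on simulated data. The clusters and rules were chosen with earlier results of these data known.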

Additional observations from a re-analysis of the deposited data

Results flagged for a closer look

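In 6 clusters SRSF7 and SRSF3 leaned to opposite fractions beyond 2-fold, each by its own interval, and the difference between the proteins was not tested. They were 3 of 43 clusters compared in both proteins in chromatin over cytoplasm (6.98%), 2 of 177 in chromatin over nucleoplasm (1.13%) and 1 of 27 in nucleoplasm over cytoplasm (3.70%). Over all clusters the numbers were 39 of 927 (4.21%), 19 of 1180 (1.61%) and 7 of 1075 (0.651%), so with counts this small no difference from the rest is shown. In chromatin over cytoplasm, chr16:90539328-90539329 had 20 and 4 SRSF7 cDNAs against 3 and 22 for SRSF3, log2 ratios of 2.89 and -5.66 and a difference of 8.54. The cluster chr12:57157690-57157704 had 73 and 8 against 15 and 14, ratios of 3.75 and -2.68 and a difference of 6.44. The cluster chr11:74133357-74133384 had 54 and 8 against 17 and 16, ratios of 3.32 and -2.69 and a difference of 6.01. By share of list, SRSF7 thus leaned to chromatin and SRSF3 to cytoplasm in these short clusters. In the clusters on chr12 and chr11 the SRSF3 counts themselves were nearly equal. Their negative SRSF3 ratios came from list size, with 1768665 SRSF3 cDNAs in chromatin against 257089 in cytoplasm. In nucleoplasm over cytoplasm, chr8:112625388-112625392 had 28 and 4 SRSF7 cDNAs against 5 and 33, ratios of 3.22 and -3.02 and a difference of 6.24. In chromatin over nucleoplasm the lean was the other way round: chr4:116282237-116282350 had 4 and 29 SRSF7 cDNAs against 72 and 1, ratios of -2.71 and 3.68 and a difference of -6.39. The cluster chr4:126712062-126712523 had 6 and 41 against 193 and 6, ratios of -2.63 and 2.52 and a difference of -5.15. Several of these counts are small.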

How the results depend on the processing

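No paired analysis was possible because the replicates of each group were pooled before deposit, which also kept single replicates from being left out. A minimum count per position moved the set most. Requiring 2 cDNAs left 748 clusters in 451 loci, 177 of them without SRSF3, with a median width of 35 nt. Requiring 3 left 288 clusters in 221 loci, 69 without SRSF3, with a median of 14 nt, both by construction of fewer positions. The clusters then held 8.85% (2 cDNAs) and 8.23% (3 cDNAs) of SRSF7 chromatin, 9.88% and 9.21% of nucleoplasm, and 4.55% and 3.83% of cytoplasm. Joining at 10 nt gave shares of 9.22%, 9.37% and 5.86% and a median width of 34.5 nt, and joining at 60 nt gave 10.5%, 11.5% and 7.39% and 97 nt. Lists thinned at random to 248498 cDNAs gave 10.3%, 11.0% and 7.26% and a median of 52 nt. With the 10 highest loci and mitochondrial RNA left out, the shares were 10.4%, 11.3% and 9.40%. In that setting the left-out cDNAs were also taken from the list totals. The 2 alternatives chosen after seeing the data left out clusters only and kept the full list totals. Leaving out the clusters of the chromosome 17 stretch gave 9.06%, 8.81% and 6.09%. Leaving out those of the highest locus gave 8.55% in chromatin and 6.58% in cytoplasm. These falls therefore cannot be set against the shares without the 10 highest loci.

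Calls between fractions fell in number under stricter demands. For chromatin over cytoplasm, higher and lower clusters numbered 46 and 46 with at least 50 cDNAs, 70 and 24 with positions counted in place of cDNAs, 63 and 36 with 2 cDNAs per position and 47 and 22 with 3. For chromatin over nucleoplasm they numbered 31 and 31 with at least 50 cDNAs, 18 and 8 with positions, and 31 and 41 with 3 cDNAs per position. They numbered 49 and 48 at a joining gap of 10 nt, and 56 and 42 with those loci and mitochondrial RNA left out. For nucleoplasm over cytoplasm the numbers were 55 and 36 with at least 50 cDNAs, 47 and 10 with positions, and 56 and 28 with 3 cDNAs per position. They were 96 and 40 with 2 cDNAs per position, and 94 and 71 with those loci and mitochondrial RNA left out. The last 2 of the chromatin over nucleoplasm settings and the count of positions turned its balance to more higher than lower clusters, and with at least 50 cDNAs it was even.

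Tallest positions lay within 5 nt in 80.0%, 75.5% and 71.5% of clusters joined at 10 nt, for chromatin with cytoplasm, chromatin with nucleoplasm and nucleoplasm with cytoplasm. On thinned lists the first was 80.6% and the last 70.9%. With 3 cDNAs per position the second was 74.3% and the last 74.7%, and with 2 the last was 69.7%. Asking for the same nucleotide gave 59.3%, 54.6% and 47.8%, and within 15 nt the second and last were 74.1% and 70.8%. Of 140 values in all, 69 stayed within 1.5 times a count or within the interval of a share. The cause of these shifts was not tested where the setting itself does not give it. Low counts limit most clusters, and only listed positions were seen.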
